A study of Arabidopsis thaliana with 18 samples.

Results

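A copy of much of the mitochondrial genome lies in chromosome 2 of Arabidopsis thaliana, and the loci described here are those that carry identifiers from AT2G07660 to AT2G07840. All 145 such loci in the count tables were taken, of 34212 loci in all. The choice used identifiers only, and no measured value. RNA was sequenced from leaves of plants 3 weeks old, grown in soil after a first period on medium. The control genotype carried pad4-1, and the other genotype carried upf1-3 and pad4-1, so both had the pad4-1 allele and the comparison between them is that of upf1-3 in a pad4-1 background. They are called the control and the double mutant below. UPF1 is a helicase needed for nonsense-mediated decay, the pathway that removes mRNAs with early stop codons, and PAD4 promotes defence through salicylic acid. From each genotype came total RNA, monosomal RNA, which sediments with single ribosomes, and polysomal RNA, which sediments with several. With 3 biological replicates for each of these 6 groups there were 18 libraries. The labels do not say whether a replicate was 1 plant or a pool, or which compartment's ribosomes the fractions held.

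Plant mitochondrial genomes encode subunits of the respiratory complexes and of ATP synthase, factors that attach haem to cytochrome c, ribosomal proteins, transfer RNAs and a maturase that helps to splice introns. Pieces of organelle DNA move into the nucleus and stay there as copies, which gather mutations with time. Where such a copy is nearly identical to the organelle's sequence, a short read fits both places, so a count on a locus of the copy can stem from either genome. The counts reported here are counts on the chromosome 2 identifiers, and they do not say which genome made the RNA.

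Matched by BLAST against the mitochondrial genome of the same reference, which is the TAIR10.1 assembly, the copy ran from 3239038 to 3509765 on chromosome 2, a length of 270.728 kb. It fell into 15 aligned blocks that covered 99.6% of that stretch, and it held 70.9% of the 367808 bases of the mitochondrial genome. Only 213 aligned bases differed, an identity of 99.92%. The sequences at both ends are shown because they mark where the nuclear sequence stops and the copy begins. Bases of the copy are in capitals, on the plus strand of chromosome 2 of TAIR10.1, 5′ to 3′, and the left border is chr2:3238998-3239077 and the right border chr2:3509726-3509805.
Left border: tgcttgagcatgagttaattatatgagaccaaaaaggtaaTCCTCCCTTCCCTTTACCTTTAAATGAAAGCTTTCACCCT
Right border: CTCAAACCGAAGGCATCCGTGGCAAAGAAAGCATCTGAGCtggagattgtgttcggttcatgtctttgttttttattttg

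Of the 145 loci, 123 lay inside the copy, 2 lay before it, 17 lay after it and 3 (AT2G07679, AT2G07781 and AT2G07782) had no position in the annotation used. The range of identifiers was thus wider than the copy, and it took in ordinary nuclear genes such as AT2G07680 (ABCC13, an ABC transporter of the multidrug resistance type) and AT2G07690 (MCM5, a subunit of the replicative DNA helicase). A further 10 annotated identifiers in the range had no row in the tables and were not analysed here. Of the 123 loci inside, 62 were annotated as protein coding, 26 as transcribed pseudogenes, 17 as pseudogenes and 18 as transfer RNAs. In their annotated exons 80 did not differ from the mitochondrial genome by a single base, 28 differed at 1 base and 15 at more, up to 9 bases. The lowest identity was 97.5%.

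Sequence pairs show how little separates the genomes. AT2G07707, which encodes subunit 8 of the ATP synthase membrane part, had no difference from its mitochondrial counterpart over its 477 exonic bases. Its first 120 coding bases (chr2:3386292-3386411, plus strand, start codon in capitals) were letter for letter those of the mitochondrial genome.
AT2G07707: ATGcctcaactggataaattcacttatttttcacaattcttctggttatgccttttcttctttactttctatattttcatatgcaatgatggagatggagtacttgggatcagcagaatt
In the longer exons of AT2G07698 (the alpha subunit of ATP synthase), AT2G07695 (a subunit II-like protein of cytochrome c oxidase) and AT2G07718 (a cytochrome b/b6 protein) single bases differed. The stretches below hold the first of these in each locus, in capitals, on the plus strand of chromosome 2 with the mitochondrial stretch turned to match. Written with the mitochondrial base first and positions counted from the 5′ end of the stretch, the differences are C31T in AT2G07698, G31T in AT2G07695 and T31C in AT2G07718.
AT2G07698, chr2:3361898-3361958: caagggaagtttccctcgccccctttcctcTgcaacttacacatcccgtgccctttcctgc
AT2G07698, mitochondrial: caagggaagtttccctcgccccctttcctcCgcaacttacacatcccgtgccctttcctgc
AT2G07695, chr2:3347064-3347124: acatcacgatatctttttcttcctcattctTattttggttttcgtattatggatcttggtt
AT2G07695, mitochondrial: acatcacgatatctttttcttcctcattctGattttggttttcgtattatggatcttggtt
AT2G07718, chr2:3429761-3429821: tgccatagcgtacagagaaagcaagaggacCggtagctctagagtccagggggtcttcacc
AT2G07718, mitochondrial: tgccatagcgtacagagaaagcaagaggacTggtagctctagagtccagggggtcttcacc
The difference in AT2G07698 was the only one in 2444 exonic bases, and 2199 of them formed 1 identical run.

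The libraries held between 16325537 and 81528839 counts. Chloroplast loci (ATCG identifiers) took 20.7 to 74.1% of them, with the highest shares in control replicate 1 of the monosomal fraction (59.9%) and of the polysomal fraction (74.1%). Of the marker lists, the 4 leaf mesophyll markers were above 0 in every library. Their sum was 25577 to 27802 CPM in control total RNA and 7680 to 12215 CPM in total RNA of the double mutant, without overlap, whereas in the fractions the ranges of the genotypes overlapped. Root hair markers summed to at most 0.639 CPM (counts scaled to each library's total and given per 1e+06 counts). Replicates 2 and 3 of control monosomal RNA had 128 and 94.0 CPM of flower and tapetum markers in sum. The same replicates of control polysomal RNA had 22.6 and 36.7 CPM. The other libraries had between 0.107 and 12.2 CPM, those of the double mutant at most 7.98 CPM. Of the 4 genes, 0 to 2 were at 0 in a library. The part of these shares in the results below was not tested beyond leaving libraries out. In total RNA UPF1 ranged from 65.9 to 81.2 CPM (control) and from 23.6 to 39.7 CPM (double mutant). In monosomal RNA it was 33.5 to 49.1 CPM in the control and 50.2 to 62.1 CPM in the double mutant, and in polysomal RNA the ranges overlapped. The count on UPF1 was lower in the double mutant in total RNA and not in the fractions, whose libraries are called by their labels. PAD4 stood at 38.4 CPM in double mutant total RNA replicate 2 and at most at 9.22 CPM elsewhere.

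Counts on the 145 loci were few relative to each library, and they were concentrated on the genes of respiration. Of the 145 loci, 24 were at 0 in all 18 libraries, 16 of the 18 transfer RNAs among them. AT2G07698 held 19.3% of the members' counts on average over the libraries, AT2G07727 (apocytochrome b, the core of complex III) 17.0%, AT2G07687 (subunit III of cytochrome c oxidase) 9.15%, AT2G07671 (the ring subunit of ATP synthase) 6.10% and AT2G07707 5.23%. The 15 loci with the largest share together held 85.5%. Among these 15, 5 were pseudogenes of complex I subunits, the NADH dehydrogenase of the respiratory chain, namely AT2G07717 (nad4), AT2G07731 (nad6), AT2G07709 (nad7), AT2G07711 (nad5) and AT2G07733 (nad2). Counts on 2 transfer RNA loci, AT2G07792 and AT2G07755, were far from 0, at 23.4 to 828 and 12.5 to 168 TMM-scaled CPM, although their annotated lengths are 75 and 73 bases. How long the authors' models of these loci were is not given in the sources used here.

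In all 3 kinds of RNA the 145 loci took a larger share of the library in the double mutant. In total RNA their share was 0.714%, 0.749% and 0.715% in the control replicates and 1.53%, 1.34% and 1.03% in those of the double mutant, a ratio of the means of 1.79. The sum of the leaf mesophyll markers was lower in these double mutant libraries, as given above, and its part in this difference was not tested. In monosomal RNA it was 0.165%, 0.199% and 0.253% against 0.601%, 0.470% and 0.535%, a ratio of 2.60. In polysomal RNA it was 0.327%, 0.758% and 0.635% against 1.20%, 1.45% and 1.75%, a ratio of 2.56. The groups did not overlap in any of the 3, and the exact two-sided permutation test gave p = 0.1 each time, the smallest that 3 against 3 libraries allow. As a share of the counts outside ATMG and ATCG loci, the ratios were 2.24 in total, 2.08 in monosomal and 2.15 in polysomal RNA. These groups did not overlap either (exact permutation p = 0.1 each time). In tissue samples a change in the number of cells or organelles and a change in RNA per cell cannot be told apart.

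The mitochondrial loci had a higher share in the double mutant as well. The 143 ATMG loci, less the 2 with the highest mean share of counts (ATMG00020 and ATMG01390), took 0.888%, 0.978% and 1.00% of control total RNA and 2.20%, 1.89% and 1.71% of that of the double mutant. The ratio of the means was 2.02 in total, 2.71 in monosomal and 2.49 in polysomal RNA, with no overlap in any of them and an exact permutation p = 0.1 each time. Set against all ATMG loci, the members' counts gave a ratio that did not separate the genotypes beyond the spread of the libraries. The differences of its mean were 0.00965 in total (exact permutation p = 0.9), 0.147 in monosomal (exact p = 0.4) and 0.169 in polysomal RNA (exact p = 0.2). The 2 highest ATMG loci took 0.230%, 0.401% and 2.40% of the 3 control monosomal libraries, so this ratio rests partly on them. Without them it was lower in the double mutant in total RNA, by a difference of −0.0916, with groups that did not overlap (exact permutation p = 0.1), and differed by −0.0287 in monosomal (exact p = 0.4) and 0.0502 in polysomal RNA (exact p = 0.9).

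**Figure D1:**
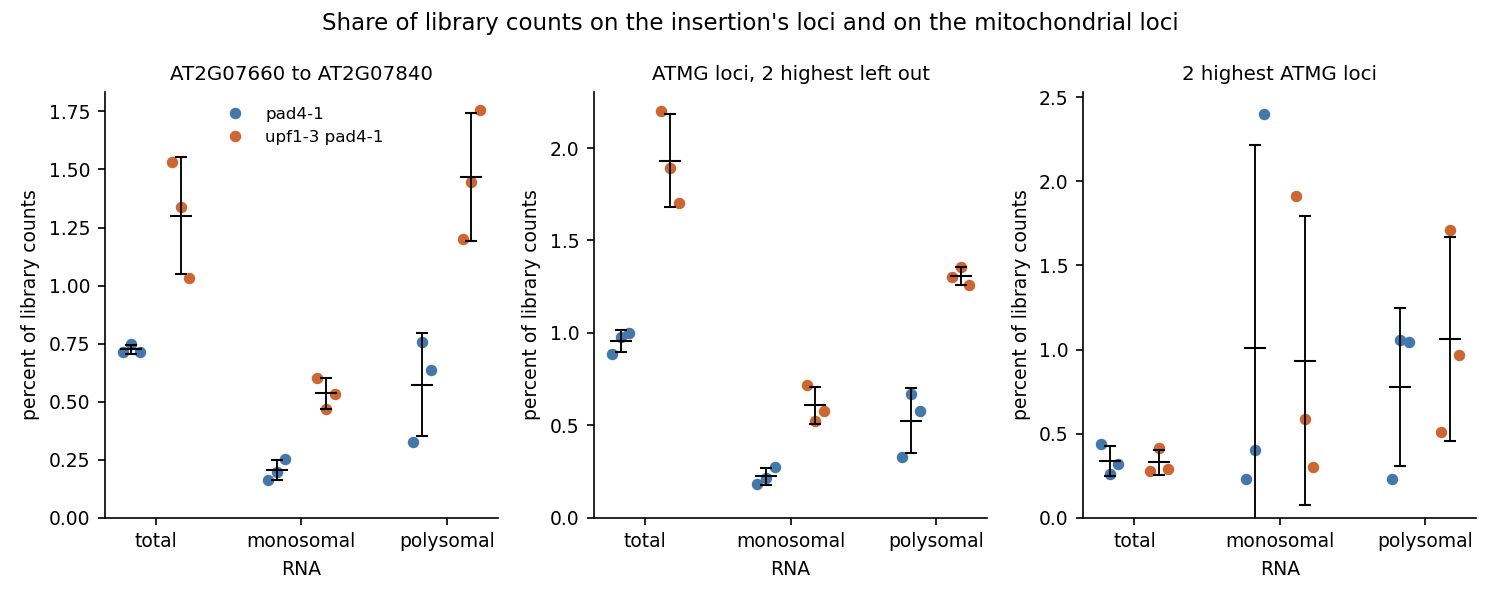
Share of library counts (percent, vertical axis) on the 145 loci, on the ATMG loci without the 2 highest, and on those 2 loci, for total, monosomal and polysomal RNA. Points are libraries, black bars the mean ± SD of 3 (cut at 0 in the right panel), and the points of both genotypes are apart in all kinds of RNA in the left and middle panels but not in the right one.

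For 50 of the loci the annotation paired the exons with 1 of 49 ATMG loci in the tables, and the counts of each pair show how reads were divided. In 9 pairs both loci had the same count (within 0.01) in all 18 libraries. These included AT2G07707 with ATMG00480 and AT2G07771 (ABCI5, a cytochrome c assembly protein) with ATMG00900, and the other 7 had between 1.02 and 94.5 counts in the mean library. In such a pair a test on the chromosome 2 locus and a test on the mitochondrial locus are the same test. At the other extreme, in 20 pairs the share of the chromosome 2 locus ranged over more than 50 percentage points between libraries with at least 10 counts on the pair. AT2G07751 (subunit 3 of complex I) took between 0 and 100% of its pair, and AT2G07768 (a cytochrome c assembly protein) between 0 and 99.6%. AT2G07741 (subunit a of ATP synthase) had no difference from ATMG00410 in 1158 exonic bases. It was at 0 in 11 of the 18 libraries and at 450 TMM-scaled CPM in control polysomal replicate 1, where it took 37.9% of the pair.

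The split of the 2 most abundant pairs differed between total RNA and the ribosomal fractions. AT2G07698 took 34.4 to 46.3% of its pair with ATMG01190 in the 6 total RNA libraries and 69.1 to 94.3% in the 12 fraction libraries. AT2G07727 took 37.0 to 70.2% of its pair with ATMG00220 in total RNA and 76.5 to 100% in the fractions. They were the only such pairs among the 27 with at least 10 counts in all 18 libraries, and none was split the other way round. Total RNA and the fractions were deposited as separate tables, so the kind of RNA and the table cannot be told apart. AT2G07687 kept a narrow range, 59.8 to 74.9% of its pair with ATMG00730, across all libraries. Between the genotypes the split did not overlap in 6 of 48 pairs in total RNA, 2 of 34 in monosomal and 4 of 48 in polysomal RNA, or 12.5%, 5.88% and 8.33% of the pairs. The exact permutation test of a pair cannot go below p = 0.1 here, and no difference of the split between the genotypes is read from these counts.

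**Figure D2:**
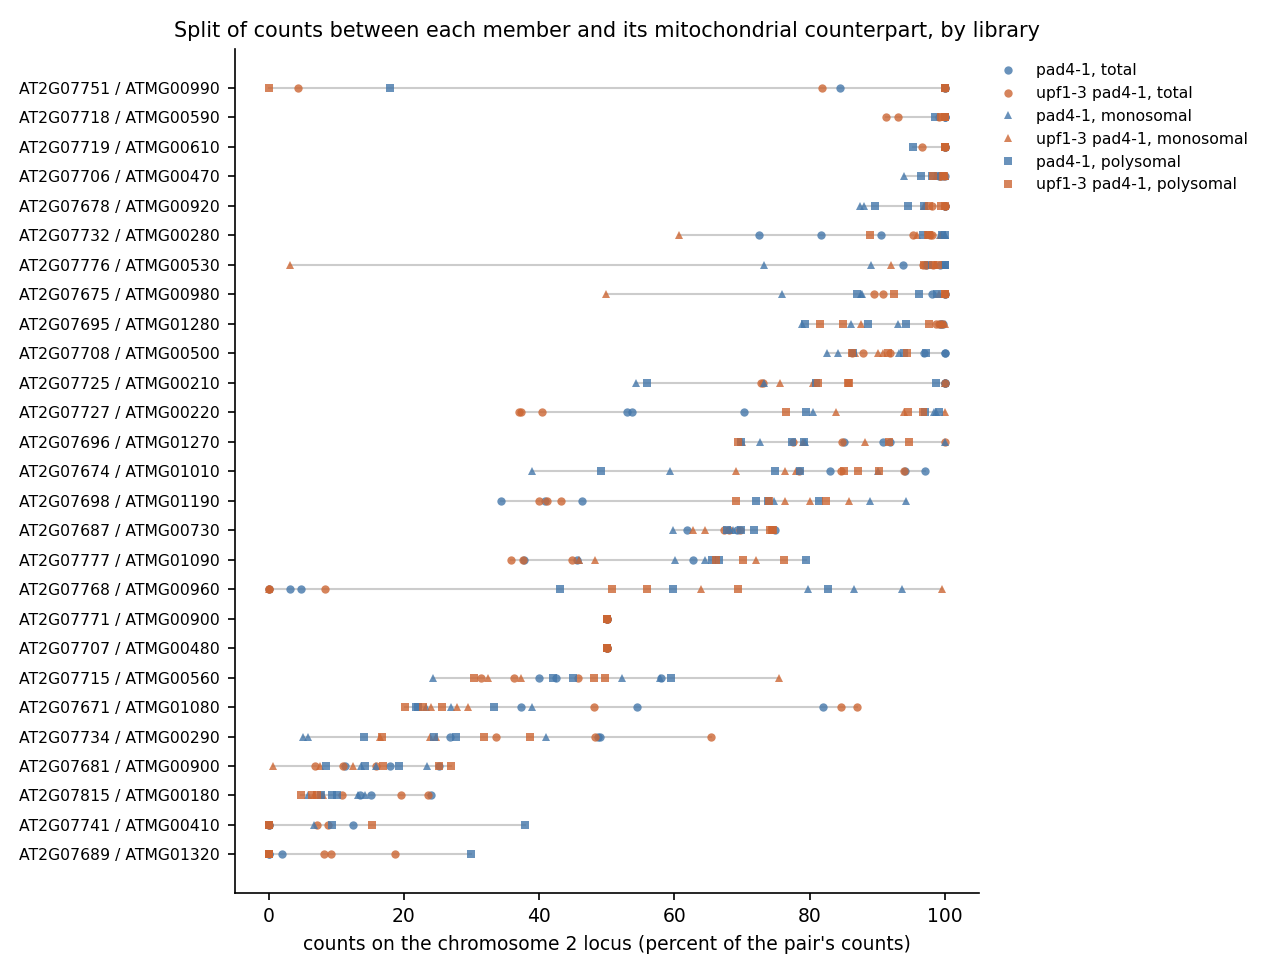
Counts on the chromosome 2 locus as a percent of the counts of the pair (horizontal axis), for the 27 pairs with at least 10 counts in each of the 18 libraries, 1 symbol a library. AT2G07707 and AT2G07771 stay at 50%, whereas AT2G07751 and AT2G07768 range from 0 to 99.6% or more.

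Between the genotypes in total RNA, 6 of 8 complex I loci, all 3 of complex III and both of complex IV were higher in the double mutant. Of the 100 members tested, 27 were higher in the double mutant and 2 were lower, where 15.3% and 12.5% of all 20302 tested loci were (edgeR quasi-likelihood test, Benjamini-Hochberg adjusted p under 0.05). The median log2 fold change was 0.83 over the members tested and 0.03 over all loci tested. Inside the copy 25 of 95 were higher and 1 was lower. The ATMG loci had 21 higher and 1 lower of 93, with a median of 1.14, and the flanking loci of chromosome 2 had 5 higher of 22, with a median of 0.72. The count was 8, 7 or 14 without control replicate 1, 2 or 3, and 19 to 37 without 1 of the double mutant's. Calls over all loci fell likewise without a control replicate, from 5638 to 2291, 2047 and 2921. The count lower was 0 without control replicate 2 and 1 without control replicate 1 or 3.

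Levels of single members are given from here in CPM after TMM scaling, which adjusts each library's total for its composition. AT2G07687, the cytochrome c oxidase subunit III locus, was higher in each kind of RNA. Its level was 674, 727 and 809 CPM in control total RNA and 1843, 2499 and 1769 CPM in the double mutant. In monosomal RNA the values were 143, 103 and 173 CPM against 571, 252 and 395 CPM, and in polysomal RNA 478, 456 and 361 CPM against 851, 876 and 1388 CPM. No double mutant library reached down to the control's range in any fraction. The log2 fold changes were 1.43 ± 0.26 (SE) in total, 1.55 ± 0.38 in monosomal and 1.3 ± 0.38 in polysomal RNA, with edgeR adjusted p of 0.0081, 0.0143 and 0.0301. Summed with ATMG00730, the pair gave 1.42, 1.54 and 1.21, with edgeR adjusted p of 0.0115, 0.0165 and 0.0456.

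AT2G07707, the subunit 8 locus whose counts equal those of ATMG00480, also rose in each kind of RNA. Control total RNA held 354, 241 and 235 CPM of it, against 668, 586 and 533 CPM for the double mutant. In monosomal RNA it had 145, 109 and 171 CPM against 422, 260 and 306 CPM, and in polysomal RNA at 285, 316 and 234 CPM against 491, 583 and 663 CPM. Again the groups did not overlap, and the log2 fold changes were 1.06, 1.23 and 1.09 (edgeR adjusted p = 0.0188, 0.0191 and 0.0309). AT2G07712, a maturase pseudogene with 5 differing bases, and AT2G07781, which has no position in the annotation, were the other members called in all 3 comparisons. AT2G07712 was higher by 1.18, 2.85 and 2.35 on the log2 scale, from levels of 0.377 to 27.7 CPM in the control.

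**Figure D3:**
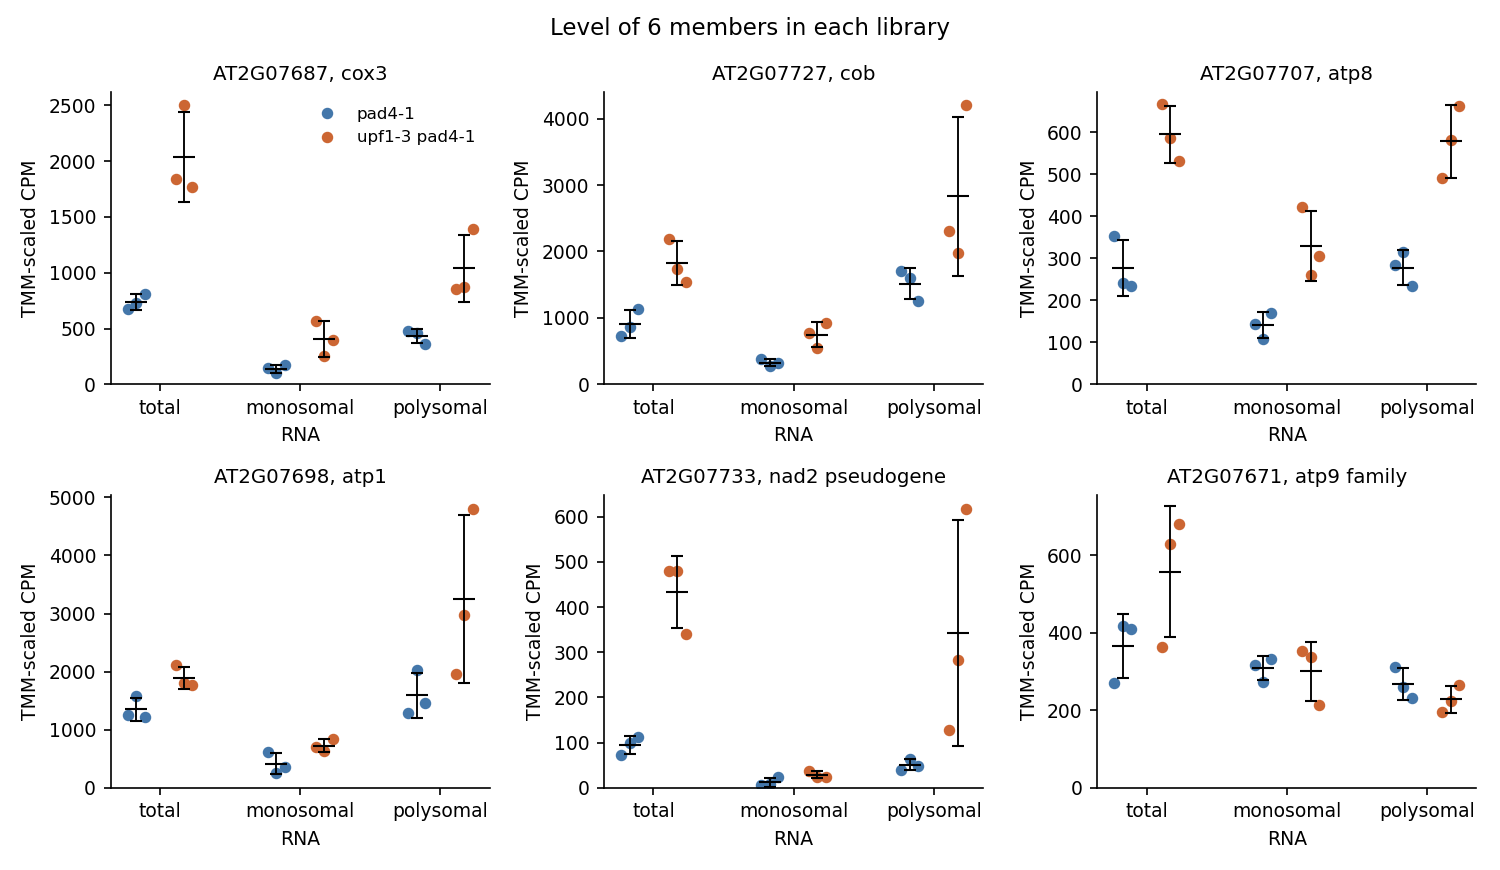
TMM-scaled CPM (vertical axis) of 6 members in each library by kind of RNA, with the mean ± SD of 3 libraries as black bars. AT2G07687 and AT2G07707 do not overlap between genotypes in any kind of RNA, and AT2G07671 overlaps in all of them.

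In complex I, 6 of the 8 loci were higher in total RNA and none was lower. AT2G07733, the nad2 pseudogene, had 73.4, 100 and 113 CPM against 481, 479 and 341 CPM (control first), a log2 fold change of 2.14 ± 0.27 (edgeR adjusted p = 0.00262). It was also higher in polysomal RNA, at 39.8, 64.3 and 48.8 CPM against 127, 283 and 616 CPM (2.79 ± 0.57, edgeR adjusted p = 0.00416). AT2G07711 (nad5) and AT2G07717 (nad4) likewise rose in total RNA (1.34 and 1.58) and in polysomal RNA (1.65 and 1.91), while neither was called in monosomal RNA. AT2G07709 (nad7) had 335, 371 and 558 CPM against 1094, 723 and 570 CPM in total RNA and was not called (log2 fold change 0.86, edgeR adjusted p = 0.081). AT2G07786, a nad1 pseudogene of 256 bases, was at 0 in all 3 control libraries of total RNA, whereas the double mutant had 105, 159 and 125 CPM. Against a floor of 3 counts a library that is at least 2257-fold higher. In monosomal and polysomal RNA of the double mutant the locus was at 0. It had no paired ATMG locus with which it could be summed, and whether its reads were counted on another locus was not tested.

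In complex III all 3 loci were higher in total RNA. AT2G07727, the apocytochrome b locus, had 730, 866 and 1133 CPM in the control and 2195, 1743 and 1538 CPM in the double mutant. Its own log2 fold change was 0.96 (edgeR adjusted p = 0.0372), that of its counterpart ATMG00220 was 2.06 (0.0145) and that of the sum was 1.54 (0.0161). AT2G07718 rose in total RNA, from 205, 214 and 197 CPM to 837, 409 and 431 CPM, and in polysomal RNA, from 175, 247 and 208 CPM to 355, 461 and 990 CPM (1.39 and 1.56, edgeR adjusted p = 0.0153 and 0.0165). Both complex IV loci were higher in total and in monosomal RNA, AT2G07695 by 1.01 and 1.24.

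Of the 6 ATP synthase loci 1, AT2G07707, was called in each comparison of the genotypes. AT2G07698, the most abundant member, had 1262, 1581 and 1221 CPM in control total RNA and 2108, 1808 and 1765 CPM in the double mutant. The groups did not overlap, yet the log2 fold change of 0.44 ± 0.24 did not pass (edgeR adjusted p = 0.208). AT2G07671, the ring subunit locus, had 272, 419 and 410 CPM against 365, 630 and 681 CPM in total RNA, and the ranges overlapped (0.57, edgeR adjusted p = 0.222). AT2G07741 was not called, but its sum with ATMG00410 was higher in total (1.86, edgeR adjusted p = 0.0048) and monosomal RNA (1.59, 0.0463). In polysomal RNA that sum was not called (0.77, edgeR adjusted p = 0.343). The sums of AT2G07698, AT2G07671 and AT2G07777 with their counterparts were not called in total RNA. None of the 6 ribosomal protein loci was called in total RNA with edgeR, and none had an unadjusted p under 0.05 there, with log2 fold changes from −0.95 to 0.56. Of 6 cytochrome c maturation loci 4 were higher, among them AT2G07771, from 10.7, 16.3 and 23.2 CPM to 53.2, 83.7 and 73.5 CPM (2.03 ± 0.34, edgeR adjusted p = 0.00566). Of 3 maturase and transporter loci 2 were higher.

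Outside the copy only 2 of the 19 placed members could be tested in total RNA, and MCM5 was lower while ABCC13 was not called. MCM5 had 26.5, 30.1 and 27.2 CPM in the control and 15.8, 9.0 and 10.4 CPM in the double mutant, a log2 fold change of −1.3 ± 0.25 (edgeR adjusted p = 0.00876). It was lower in polysomal RNA as well (−1.24, edgeR adjusted p = 0.016), and its −0.58 in monosomal RNA was not called (0.243). ABCC13 had 8.07, 10.5 and 10.1 CPM against 12.1, 12.9 and 21.4 CPM, and its 0.66 was not called (edgeR adjusted p = 0.124). The other lower member in total RNA was AT2G07779, an uncharacterized protein inside the copy, at 28.3, 28.1 and 29.5 CPM against 20.4, 12.5 and 8.90 CPM (−1.09).

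In monosomal RNA 9 of 99 members were higher and 1 was lower, where 8.07% and 4.6% of all loci tested were, so the share of members higher was near the background. The median log2 fold change was 0.46. Without control monosomal replicate 2, whose flower and tapetum markers were the highest, the count higher was 1, while calls over all loci in either direction fell from 2647 to 1378. The count lower was 0 without control monosomal replicate 1 or 2 or double mutant replicate 2 or 3, and 2 without double mutant replicate 1. The ATMG loci had 13 higher and 1 lower of 89. AT2G07734, which encodes ribosomal protein S4, was the only ribosomal protein locus called (2.26, edgeR adjusted p = 0.031), and its share of the pair with ATMG00290 ranged from 5.13 to 65.4%. AT2G07786 was the lower member. It had 9.07, 4.08 and 0.440 CPM in the control and 0 in each double mutant library, at least 61.5-fold lower against the floor of 3 counts, and at least 30.7-fold lower without control replicate 1.

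In polysomal RNA 13 of 99 members were higher and 1, MCM5, was lower, where 8.34% and 5.04% of all loci were. The median log2 fold change was 1.22 over the members, 1.04 over the ATMG loci, 0.99 over the flanking loci and 0.03 over all loci. By role 3 of 7 complex I loci, 1 of 3 complex III loci, 1 of 2 complex IV loci and 2 of 6 cytochrome c maturation loci were higher. AT2G07792, annotated as tyrosine transfer RNA, had 111, 193 and 150 CPM in the control and 201, 367 and 828 CPM in the double mutant (1.67 ± 0.46, edgeR adjusted p = 0.0248). The double mutant's replicate 3 was the highest of the 3 for this locus and for AT2G07733, AT2G07718 and AT2G07687. The count higher was 1 without it, 1 without control replicate 3, 5 without control replicate 1 and 22 without double mutant replicate 1. Calls over all loci went from 2796 to 1418, 1432, 2508 and 2725 in the same order. It was also 5 without replicate 1 of both control fractions, whose chloroplast share was the highest. The count lower was 0 without double mutant replicate 3.

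**Figure D4:**
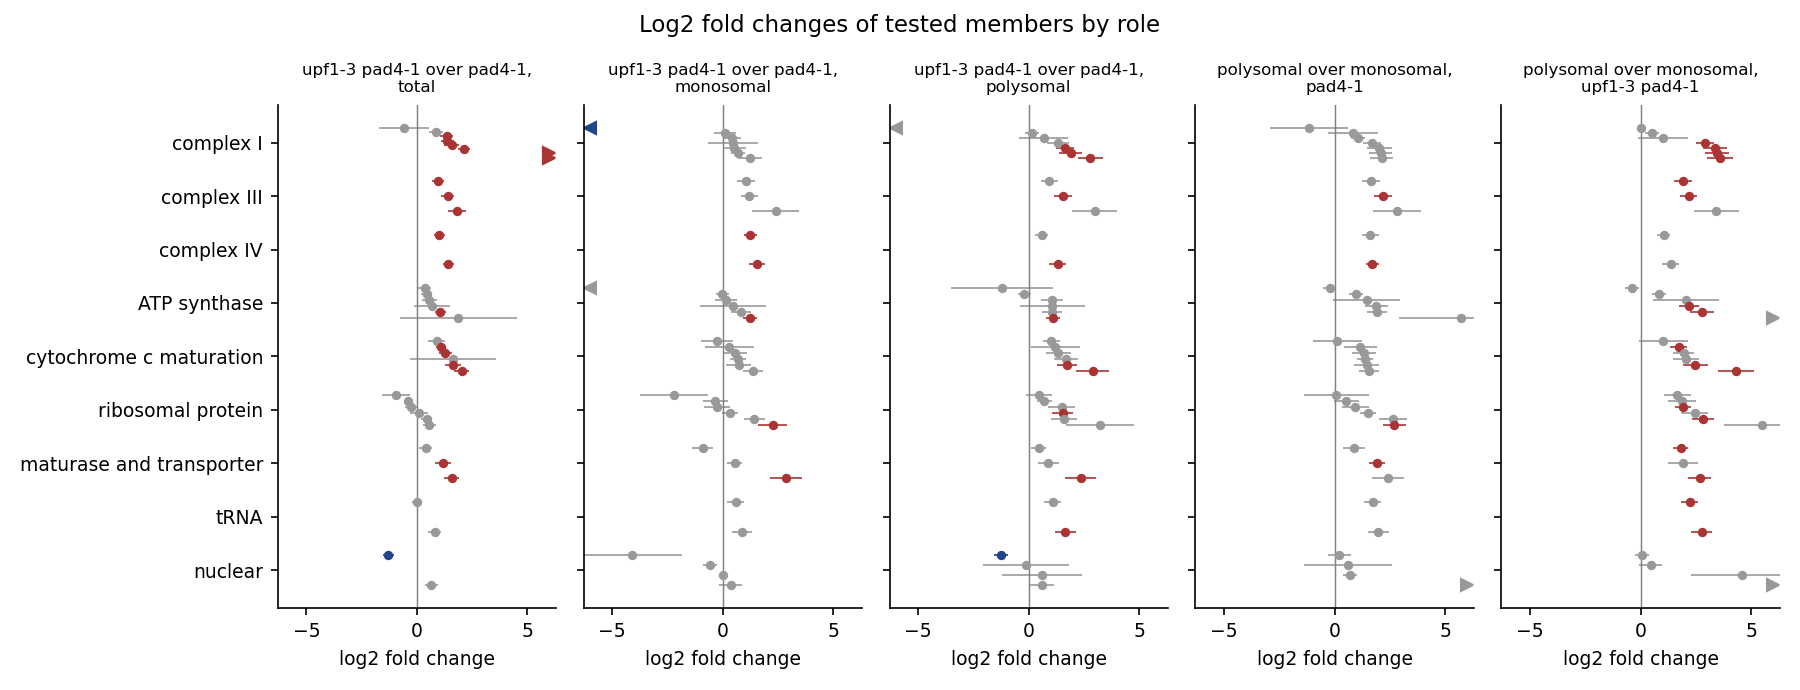
Log2 fold changes (horizontal axis, ± SE) of the tested members by role, in the 3 comparisons of the genotypes and the 2 of polysomal over monosomal RNA. Red and blue points were called higher and lower at an edgeR adjusted p under 0.05, grey ones were not, and triangles mark values beyond 6 on either side; in total RNA all loci of complexes III and IV are red and none of the ribosomal protein loci is.

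Within each genotype the members' median was higher in polysomal than in monosomal RNA. The median log2 ratio was 1.77 over the 99 members tested in the control and 2.65 in the double mutant, where over all loci it was −0.00 and 0.03. The ATMG loci had medians of 1.74 and 2.14, the chloroplast loci 1.25 and 1.32 and the flanking loci of chromosome 2 had 2.48 and 3.60. In the control 7 members were called higher and none lower, and in the double mutant 22 and none. Of all loci tested 0.153% were higher and 0.177% lower in the control, 0.33% in either direction. In the double mutant these were 0.57% and 0.536%, or 1.11% in either direction. No member was called lower by edgeR in either genotype, and none by limma-voom or DESeq2.

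Same-numbered monosomal and polysomal libraries of a genotype varied together to an unequal degree (r from 0.121 to 0.470). Control monosomal replicate 2 had the lowest r and matched polysomal replicate 3 best. With the replicate number as a block 17 members were higher in the control and 27 in the double mutant. With the block set within each genotype the counts were 26 and 34. Calls over all 20895 loci rose too, from 69 to 200 and 481 in the control and from 231 to 293 and 624 in the double mutant. The unblocked counts changed with single libraries, as did the calls over all loci. In the control the count was 0 without monosomal replicate 2 or any polysomal replicate, 1 without monosomal replicate 3 and 5 without monosomal replicate 1, and it was 0 without replicate 1 of both fractions. Where it was 0, between 2 and 5 loci of the whole table were called, and 12 and 123 were called without monosomal replicate 3 and 1. In the double mutant it was 0 without monosomal replicate 2, 6 without monosomal replicate 3, 7 without polysomal replicate 3 and 12 without polysomal replicate 2, with 5, 44, 44 and 65 loci called over the whole table. Without TMM scaling both counts were 0, with 0 and 8 calls over all loci, and that choice moved the median of all loci to −0.14 and −0.27.

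The locus with the smallest p in both genotypes was AT2G07708, an uncharacterized protein downstream of AT2G07707 with 1 differing base. It had 21.5, 33.6 and 30.6 CPM in control monosomal RNA and 149, 184 and 149 CPM in control polysomal RNA, and in the double mutant 43.4, 44.9 and 52.7 CPM against 196, 247 and 599 CPM. The log2 ratios were 2.48 ± 0.39 and 2.91 ± 0.40 (edgeR adjusted p = 0.017 and 0.00657). AT2G07725, which encodes ribosomal protein L5, had 8.14, 4.40 and 9.86 CPM against 34.1, 72.1 and 40.9 CPM in the control and 16.3, 12.8 and 31.2 CPM against 62.3, 115 and 239 CPM in the double mutant (2.71 and 2.81, edgeR adjusted p = 0.0331 and 0.0151). AT2G07727 rose by 2.20 and 1.94 (edgeR adjusted p = 0.0331 and 0.0314). For these loci no polysomal library was as low as a monosomal one of its genotype.

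In the double mutant 4 of 7 complex I loci were called, the pseudogenes of nad5, nad4, nad7 and nad2, with log2 ratios of 2.91 to 3.58. Of the other groups 2 of 3 complex III loci, 2 of 6 ATP synthase loci, 2 of 6 ribosomal protein loci, 3 of 6 cytochrome c maturation loci, 2 of 3 maturase and transporter loci and both tested transfer RNA loci were called. Neither of the 2 complex IV loci was called, nor any of the 4 nuclear loci, and 5 of 57 loci with no stated role were. AT2G07671 was called in neither genotype. It had 318, 274 and 333 CPM in control monosomal and 313, 259 and 232 CPM in control polysomal RNA, and its log2 ratio was −0.22 in the control (edgeR adjusted p = 0.833) and −0.38 in the double mutant (0.656).

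The difference of the polysomal to monosomal ratio between the genotypes was called for none of the 99 members with edgeR, where 0% of all loci were called. It had an unadjusted p under 0.05 for 7 members and for 493 of all 20895 loci, and DESeq2 and limma-voom called none. The median of this difference was 0.61 over the members, 0.21 over the ATMG loci and 0.01 over all loci. The smallest p belonged to AT2G07681, a cytochrome c assembly locus (ABCI4), with a difference of 3.15 ± 1.05 on the log2 scale (edgeR quasi-likelihood fit across all loci, adjusted p = 1.00). It held 0.563 to 26.9% of its pair with ATMG00900. Summed with ATMG00900 and with AT2G07771, which has the same counterpart, the difference was 0.59. The comparisons of the genotypes in the fractions and those of the fractions within a genotype share libraries.

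Polysomal against total RNA showed few members changed. In the control 2 of 104 were lower and none was higher, where 1.09% and 1.39% of all loci were, and in the double mutant 6 were lower and 1 was higher, where 3.72% and 5.23% were, or 8.95% in either direction. No member was higher in the control with edgeR, while 45 had a positive log2 ratio (11344 of all 21905 loci) and 16 an unadjusted p under 0.05 in either direction (3798 of all loci), and DESeq2 called 2 higher and limma-voom 1. AT2G07815, a cytochrome c biogenesis protein of the ccmF type, was lower in both genotypes, at 18.2, 44.6 and 30.7 CPM in control total RNA against 10.8, 12.9 and 10.7 CPM in control polysomal RNA (−1.44 and −2.12, edgeR adjusted p = 0.0365 and 0.00174). Summed with ATMG00180, which held most of the pair's counts, the ratios were −0.48 and −0.63 and were not called (edgeR adjusted p = 0.454 and 0.216). The control count of lower members was 0 without total RNA replicate 2 or 3 or any polysomal replicate, and that of the double mutant was 3 without total RNA replicate 2 or polysomal replicate 2. Calls over all loci were 48 to 371 in these control fits, against 543, and 702 and 1018 in those of the double mutant, against 1960.

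For AT2G07671 the pair and its members gave different results. In the double mutant it had 365, 630 and 681 CPM in total RNA and 197, 224 and 266 CPM in polysomal RNA, and was called lower (−1.29 ± 0.31, edgeR adjusted p = 0.0123). Its counterpart ATMG01080 was called higher in the same comparison (1.95, edgeR adjusted p = 0.0274). The sum of the pair was not called, with a log2 ratio of 0.42 (edgeR adjusted p = 0.472). AT2G07689 (subunit 2 of complex I) had 85.4, 122 and 67.6 CPM in double mutant total RNA and 0 in its 3 polysomal libraries, while the sum with ATMG01320 gave −0.90 and was not called (edgeR adjusted p = 0.143). Between the genotypes in total RNA, 14 of 49 summed pairs were higher and none was lower, where 5667 of all 20269 loci were called in either direction. In the fit without sums 15.3% of all loci were higher. Higher too were 11 of 46 tested members of pairs and 9 of 36 tested ATMG partners. AT2G07681 and AT2G07771 share the counterpart ATMG00900, so all 3 loci were summed together. That sum is counted under both members here and in the counts below, as is ATMG00900 itself. AT2G07807 and ATMG01180, the counterpart of AT2G07667, were at 0 throughout, and ATMG01040, the counterpart of AT2G07664, was at 0 once rounded. The sums of these pairs thus held the counts of the other locus only. In polysomal RNA 11 of 49 sums were higher and none was lower, beside 6 of 45 members and 4 of 38 partners higher. Of all 20861 loci 2801 were called in either direction in that fit, and without sums 8.34% of all loci were higher. For polysomal over monosomal RNA in the double mutant 17 of 49 sums were higher and none was lower, beside 10 of 45 members and 4 of 38 partners higher. Of all 20861 loci 240 were called in either direction in that fit, and without sums 0.57% of all loci were higher.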

How the data were processed

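Leaf RNA was sequenced as rRNA-depleted, strand-specific single-end libraries, per the labels' protocols. The deposited values are estimated counts per locus, and the submitters' processing notes name kallisto 0.43.0, limma and TAIR10 without roles or order. The transcript models and the read length are not given in the sources used here. All 34212 loci of both tables were used, with the estimated counts rounded to whole numbers.

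Members and lists were chosen with earlier results of these data known. edgeR 4.0.16 (R 4.3.3) fitted quasi-likelihood models across all loci with TMM scaling and filterByExpr at a minimum count of 10, on 6 libraries for total RNA, 12 for the fractions and all 18 for polysomal against total RNA. Adjusted p-values (Benjamini-Hochberg, two-sided) under 0.05 were called. Shares and splits were compared by exact two-sided permutation of 3 against 3 libraries. These p-values measure the spread between the labelled replicates, whose origin in separate plants or pools is not given. The scripts were tested on simulated data.

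Coordinates are those of TAIR10.1, matched with blastn 2.17.0, and its mitochondrial sequence may differ from that of the authors' build. Members were named if they were among the 15 most abundant, among the 6 smallest p-values called in a comparison, had a symbol, or matched an ATMG locus at 90% or more, for which nucleotide identity was used. The count on UPF1 was lower in the double mutant in total RNA and did not check the genotype of the 12 fraction libraries.

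Same-numbered monosomal and polysomal libraries of a genotype deviated together (r from 0.121 to 0.470), which was read from the data and not from a label. Control monosomal replicate 2 matched polysomal replicate 3 best. Same-numbered libraries of the genotypes within a kind of RNA had r from −0.177 to 0.183. The main fits and their p-values were not paired, also for polysomal over monosomal RNA. The replicate number entered only the fits with a block. Alternatives were the replicate block, no TMM scaling, no filter, organelle loci left out, limma-voom (limma 3.58.1), DESeq2 1.42.0, pairs summed, and each library left out. The planned ratio to protein-coding ATMG loci was not run, and leaving out the 2 highest ATMG loci, chosen after seeing the data, replaced it.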

Additional observations from a re-analysis of the deposited data

Results flagged for a closer look

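For 2 members the libraries of one kind of RNA all lay on one side between the genotypes and those of another on the opposite side. How many of all loci did so was not counted, so this number is not read as a result about the members. The difference between the kinds of RNA was not tested. AT2G07732, a fragment of the chloroplast rbcL gene within the mitochondrial sequence, had a log2 fold change of 0.609 in total RNA, at 9.83, 20.4 and 13.0 CPM in control libraries and 21.7, 23.2 and 23.1 CPM in those of the double mutant. In monosomal RNA it had a log2 fold change of −1.52, at 16.2, 8.12 and 17.8 CPM against 6.76, 6.66 and 1.08 CPM. Neither was called by edgeR after adjustment. Summed with its counterpart ATMG00280, which was itself lower in total RNA (−2.25, edgeR adjusted p = 0.0188), the values were 0.37 and −1.43 and neither was called. Whether reads of the chloroplast gene were counted on AT2G07732 was not tested. AT2G07786, the nad1 pseudogene, had a fitted log2 fold change of 15.9 in total RNA, where the control libraries were at 0, and of −10.4 in monosomal RNA, where those of the double mutant were at 0. Both fitted values are set against a group at 0 and are no bounds.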

How the results depend on the processing

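Counts of members called depended on the filter, the tool and single libraries, and the cause was not tested. Between the genotypes in monosomal RNA the count higher was 18 without TMM scaling, 16 without the filter and 14 with DESeq2, and the count lower was 4 without the filter and 3 with DESeq2. Calls over all loci in either direction went from 2647 to 3288, 3503 and 3874 with these choices. Without the filter 29917 loci of the fractions were tested, against 20895 with it. In polysomal RNA the count higher was 30 without the filter, 22 with DESeq2 and 5 without replicate 1 of both control fractions, and the count lower was 0 without TMM scaling, 4 without the filter, 2 with organelle loci left out and 2 with DESeq2. There, calls over all loci went from 2796 to 3570 without the filter, 3747 with DESeq2 and 2617 without replicate 1 of both control fractions. They were 2353 without TMM scaling and 2826 with organelle loci left out. Polysomal over monosomal RNA in the control gave 0 higher without TMM scaling, 45 without the filter, 17 with the replicate block, 26 with the block within genotype, 34 with DESeq2, 11 with pairs summed and 0 without replicate 1 of both fractions. Over all loci the calls went from 69 to 0, 577, 200, 481, 489, 70 and 5 in the same order. In the double mutant this comparison gave 0, 56 and 57 higher without TMM scaling, without the filter and with DESeq2, 34 with the block within genotype and 32 without replicate 1 of both control fractions. Over all loci the calls went from 231 to 8, 797, 755, 624 and 369 in the same order. The replicate block moved no other count by more than 1.5 times. The genotype difference of the polysomal to monosomal ratio had 2 members higher without the filter, where 48 of all 29917 loci were called in either direction. Polysomal over total RNA in the control gave 3 higher without the filter, 1 with limma-voom and 2 with DESeq2, and 1 lower without TMM scaling, 5 without the filter, 5 with DESeq2 and 1 with pairs summed. Over all loci the calls went from 543 to 719 without the filter, 536 with limma-voom and 1320 with DESeq2. They were 170 without TMM scaling and 540 with pairs summed. Over all loci the double mutant's calls for polysomal over total RNA went from 1960 to 2147 without the filter, 2506 with limma-voom, 2896 with DESeq2 and 1960 with pairs summed. Among the members this comparison gave 3, 5, 2 and 2 higher without the filter, with limma-voom, with DESeq2 and with pairs summed, and 10, 10 and 3 lower with limma-voom, DESeq2 and pairs summed. Summing its pair reversed AT2G07671 to 0.42 there, and leaving the 2 highest ATMG loci out reversed the ratio to −0.0916 in total and −0.0287 in monosomal RNA. With 1 library left out, the counts higher and lower ran from 7 to 37 and 0 to 3 (genotypes, total), 1 to 9 and 0 to 2 (monosomal), 1 to 22 and 0 to 1 (polysomal), 0 to 5 and 0 to 0 (polysomal over monosomal, control), 0 to 30 and 0 to 0 (double mutant), 0 to 0 for the difference of these ratios, 0 to 1 and 0 to 2 (polysomal over total, control) and 0 to 3 and 3 to 6 (double mutant). The genotype difference in share ran from 0.459 to 0.710 points in total, 0.297 to 0.362 in monosomal and 0.751 to 1.03 in polysomal RNA, and that of the ratio from −0.0135 to 0.0372, 0.0535 to 0.243 and 0.0956 to 0.254. Pairs whose split did not overlap numbered 6 to 16, 3 to 9 and 6 to 9. With all libraries they were 6 of 48, 2 of 34 and 4 of 48. A lack of overlap comes about more easily with fewer libraries, and no difference between the genotypes is read from these counts. For named members 771 of the alternative values kept direction and call, 286 kept direction without the call, and 1 reversed. Without TMM scaling the median of all loci was −0.13 in total, 0.62 in monosomal and 0.47 in polysomal RNA between the genotypes. Loci with few counts and the uncertain division of identical reads limit the precision.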
